A study of Mus musculus with 282 samples.

Results

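The 34 genes described here act in the nucleolus on the way from ribosomal DNA to finished ribosomal subunits. They form a list of symbols drawn up by function, not by a threshold on measured values, although earlier results of these data were known when it was made, and all 34 were found among the 49671 Ensembl mouse gene rows of the count table. They were measured in single hematopoietic stem cells (HSCs), sorted from bone marrow as Lin- Sca-1+ Kit+ (LSK) cells with CD48 low or absent and CD150 present. The 6 donor mice, aged 12 to 22 weeks and used in 2 independent experiments, carried rtTA on both Rosa26 alleles and H2B-GFP on both Col1a1 alleles, a doxycycline-inducible histone label, and were never induced. Every cell therefore belongs to 1 group, with no treated arm. Of 282 wells, 232 held at least 100000 gene counts and 1000 detected genes and were kept. The cell names give a library series (29 or 32) and an HSC code, which together form 6 sets. Series 29 holds the codes HSC-3 and HSC-4 and series 32 the codes HSC-2 to HSC-5, so that a set is called L29 HSC-3, for example, and values by set are always listed with series 29 first and codes in ascending order. Nothing in the labels ties a set or a cell to an animal, so a mean ± SD over sets measures only the spread between these 6 sets, which may be technical.

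Ribosome production starts when RNA polymerase I transcribes the rRNA precursor in the nucleolus. Small nucleolar RNA-protein particles then methylate (box C/D) or pseudouridylate (box H/ACA) that precursor, while separate groups of assembly factors cut, fold and load it into the small and the large subunit. Adult HSCs divide rarely and are known for a low rate of protein synthesis, and the demand for ribosomes is known to increase when cells grow and divide.

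A near-identical set of sequences bears on how the most widely detected member was counted. Npm1, which encodes nucleophosmin, lies on the minus strand at chr11:33152287-33163206 (GRCm38), and 3 processed pseudogenes of it have rows of their own in the table. The next lines show 90 bases of the Npm1 coding sequence, positions 532 to 621 counted from the A of the start codon, and the aligned bases of each pseudogene, from the GENCODE M21 transcripts. Capitals mark bases that differ from Npm1.
Npm1: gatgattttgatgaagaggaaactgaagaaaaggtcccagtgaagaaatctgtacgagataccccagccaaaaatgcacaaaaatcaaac
Gm5611: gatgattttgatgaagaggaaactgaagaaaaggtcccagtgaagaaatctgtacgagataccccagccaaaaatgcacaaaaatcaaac
Gm6477: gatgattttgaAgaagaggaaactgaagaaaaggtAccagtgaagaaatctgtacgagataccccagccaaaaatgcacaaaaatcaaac
Gm14681: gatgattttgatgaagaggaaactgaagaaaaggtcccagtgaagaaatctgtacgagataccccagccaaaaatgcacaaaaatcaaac
The stretch in Gm14681 and the stretch in Gm5611 had 0 differences from Npm1, and Gm6477 had 2, so a read that falls wholly within these bases matches several rows equally well. Over the kept cells the Npm1 row held 59783 counts, Gm14681 held 25045, Gm6477 held 3443 and Gm5611 held 3386.

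The region upstream of the transcription start was read for the 28 members that have an entry in the RefSeq promoter table (GRCm38.p6). The E-box CACGTG, the core site of MYC and MAX, occurred on either strand within 250 bases before and 50 after the start in 5 of 28 members (17.9%), against 8.09% of all genes in that table. The ETS-type motif CCGGAAG, searched on both strands, occurred in 7 of 28 members (25%), against 9.93% of all genes. E-boxes were found at Wdr43, Utp20, Pes1, Nop2 and Mybbp1a, and ETS-type motifs at Polr1c, Nhp2, Gar1, Heatr1, Nop2, Ppan and Nolc1. Nop2 was the only member holding both. The promoters of 3 members are shown, 250 bases up to the start, with the E-box and ETS-type motifs in capitals: Nop2 because it held both, Nolc1 and Ncl because their share of counts had a positive slope on RNA content in each of the 6 sets (described further on).
Nop2 (chr6:125131633-125131882, plus strand): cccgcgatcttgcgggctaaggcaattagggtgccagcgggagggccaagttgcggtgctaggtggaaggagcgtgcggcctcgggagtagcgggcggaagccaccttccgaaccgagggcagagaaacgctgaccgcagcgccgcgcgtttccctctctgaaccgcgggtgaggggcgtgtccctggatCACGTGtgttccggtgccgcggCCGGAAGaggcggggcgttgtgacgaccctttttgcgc
Nolc1 (chr19:46075597-46075846, plus strand): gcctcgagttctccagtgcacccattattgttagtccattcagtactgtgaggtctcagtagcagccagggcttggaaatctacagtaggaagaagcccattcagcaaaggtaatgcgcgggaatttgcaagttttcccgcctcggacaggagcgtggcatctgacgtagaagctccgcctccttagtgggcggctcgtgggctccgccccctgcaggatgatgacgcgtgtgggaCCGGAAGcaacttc
Ncl (chr1:86359456-86359705, minus strand): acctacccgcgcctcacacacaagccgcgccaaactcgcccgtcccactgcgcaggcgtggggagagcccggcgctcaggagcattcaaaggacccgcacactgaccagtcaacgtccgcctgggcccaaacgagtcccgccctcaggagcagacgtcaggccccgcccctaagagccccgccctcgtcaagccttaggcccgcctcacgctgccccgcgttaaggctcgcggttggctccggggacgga
The Ncl stretch held neither motif, which says only that these letters are absent from the window.

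The cells carried the labelled identity in their transcripts. All 14 HSC markers were at 10 CPM (counts per 1000000 gene counts) or more in at least 10% of kept cells, Kit was in 84.5% and Procr in 55.6%, and of the genes behind the sort Slamf1, which encodes CD150, was in 19.4% and Cd48 in 2 of 232 cells. Markers of other lineages were mixed. Elane, Ms4a1, Cd3d and Mcpt8 were at 10 CPM in no cell, while the myeloid genes Lyz2 and Prtn3 were in 87.1% and 81.9% of cells. The progenitor marker Cd34 was in 50.4%, Gp9 in 32.8%, Vwf in 27.2%, Cd79b in 24.6% and Pecam1 in 23.3%. Kept cells held 116009 to 1680714 gene counts (median 280096), so that 10 CPM was 2.8 reads in the median cell. L29 HSC-4 differed from the rest: its cells had 4151 detected genes (median; 5126 to 5685.5 elsewhere) and a median mitochondrial share of 6.66% (3.28% to 3.73% elsewhere). Results that rest on it are marked. A further 38 wells, all in L32 HSC-2 and L32 HSC-3, were near-empty and served as a background measurement.

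Most members were found in most sets, at low counts. With 10 CPM as the detection level, 33 of 34 members were detected in at least 10% of kept cells, where 19.5% of all gene rows were, and 12 were detected in at least 50%, where 4.28% of all rows and 21.9% of the 9689 genes past the first level were. These 9689 genes are called the genes tested below. The exception was Rrp12, a factor for export and maturation of small subunit precursors, found in 18 cells (7.76%, exact Clopper-Pearson 95% interval 4.66% to 12.0%). A cell had a median of 15 members detected, with a range of 2 to 31. Together the 34 genes took up 0.574% of a cell's gene counts on average, with set means of 0.571%, 0.483%, 0.609%, 0.627%, 0.581% and 0.591% and single cells between 0.0490% and 1.57%. L29 HSC-4 was the lowest set and its cells had a median of 10 members detected. Npm1 and Ncl made up 30.6% of the members' counts, and with Nop10 38.7%.

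**Figure D1:**
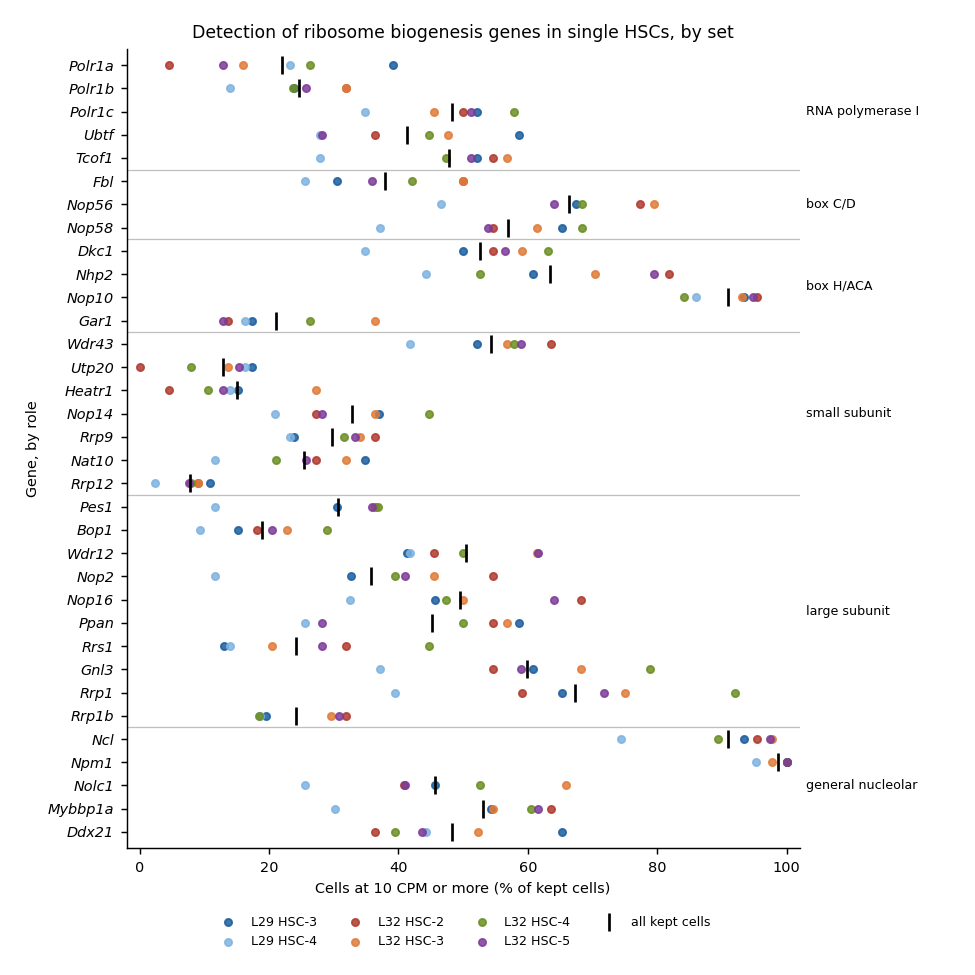
Percentage of kept cells with at least 10 CPM of each of the 34 genes (horizontal axis), grouped by role (rows); each coloured point is 1 of the 6 sets and the black bar is all 232 kept cells. Npm1, Ncl and Nop10 sit at the right, from 74.4% to 100% in every set, and L29 HSC-4 (pale blue) is the lowest point for most genes, for example at 11.6% for Nop2.

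The RNA polymerase I genes were detected in 22.0% to 48.3% of cells. Polr1c, a subunit shared with RNA polymerase III, had 149, 122, 90.5, 122, 163 and 146 CPM in the 6 sets. Per kilobase of gene model, the merged exons that the table gives as length, it was at 59.4 ± 11.5 CPM per kb (SD over 6 sets), against 10.2 ± 3.11 for Polr1b and 4.06 ± 2.35 for Polr1a, which encode the 2 largest subunits. Polr1a was uneven between sets, at 73.6, 48.8, 1.34, 60.3, 60.3 and 18.5 CPM, with L32 HSC-2 far below the rest. Ubtf, the factor that keeps rDNA open, was in 41.4% of cells and Tcof1, its partner treacle, in 47.8%.

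Of the snoRNA-particle genes, the box H/ACA group held the highest level per length of all member rows, Nop10. This gene, a small core protein of that particle, was at 416 ± 93.0 CPM per kb and was detected in 90.9% of cells (interval 86.5% to 94.3%). Npm1 was below it at 302 CPM per kb as its row stands, and above it at 461 with its pseudogene copies added or at 493 per kilobase of its longest coding transcript. The CPM of Nop10 in the sets was 497, 637, 473, 418, 353 and 376, so that both L29 sets lay above all L32 sets. Nhp2, its neighbour in the particle, was at 127 ± 26.9 CPM per kb, Dkc1, the pseudouridine synthase, at 52.1 ± 5.84, and Gar1 at 12.9 ± 5.71. The ranges of these 4 genes over the sets did not overlap on this per-length scale.

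In the box C/D group, Nop56 and Nop58, the paired scaffold proteins, were detected in 66.4% and 56.9% of cells, at 63.8 ± 13.2 and 23.4 ± 4.72 CPM per kb. Fbl, the methyltransferase of the same particle, was at 4.00 ± 0.866 CPM per kb of a gene model of 4209 bases, and at 14.1 per kb of its longest coding transcript of 1197 bases, with 13.9, 13.5, 19.3, 21.4, 20.3 and 14.0 CPM in the sets. It was detected in 37.9% of cells and at 0 in 115 of 232, with a median of 2.86 CPM and a highest cell of 231 CPM. Fbl has a near-identical processed pseudogene, Gm5812 (96.9% identity), with 0 counts, and an annotated transcript of Tulp4 that matches it at 99.6% over 690 bases. No source used here gives how reads that match both were counted, so the level of Fbl is uncertain.

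The small subunit factors ranged from 3.19 ± 2.30 CPM per kb for Utp20, the lowest member, to 61.8 ± 20.0 for Wdr43, both parts of the early processome on the rRNA precursor. Utp20 was not detected at 10 CPM in any of the 22 cells of L32 HSC-2 and in 7.89% to 17.4% of cells in the other sets. Wdr43 was at 132, 190.3, 296, 175, 240.3 and 303 CPM. Between them lay Nop14 at 35.4, Rrp9, a protein of the U3 snoRNA particle, at 19.6, Nat10, an RNA acetyltransferase, at 8.79, Heatr1 at 4.91 and Rrp12 at 4.08 CPM per kb.

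Among the 10 large subunit factors, Rrp1 and Gnl3 (nucleostemin) had the highest levels, 157 ± 43.6 and 115 ± 17.3 CPM per kb. Pes1, Bop1 and Wdr12 form 1 complex. Pes1 was at 20.3 ± 6.20 and Bop1 at 18.4 ± 6.72 CPM per kb, which differed by less than their spread, and Wdr12 was at 10.7 CPM per kb, with 113 to 159 CPM in the sets. They were detected in 30.6%, 19.0% and 50.4% of cells. Nop2, an rRNA cytosine methyltransferase, had 167, 34.1, 203, 123, 86.7 and 122 CPM, lowest in L29 HSC-4. Nop16 was at 73.9, Ppan at 32.5, Rrs1 at 31.6 and Rrp1b, a paralog of Rrp1, at 7.23 CPM per kb.

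The general nucleolar proteins included the most widely detected members. Npm1 was in 229 of 232 cells (98.7%, interval 96.3% to 99.7%) at 864, 859.8, 709.7, 726, 813 and 812 CPM, an even level. Ncl, nucleolin, was in 90.9% of cells at 801, 575, 1088, 1269.7, 981 and 1080.0 CPM, with both L29 sets below all L32 sets. Per length Npm1 was above Ncl, at 302 ± 24.6 against 93.4 ± 24.1 CPM per kb. Mybbp1a, a repressor found at rDNA, was in 53.0% of cells, the helicase gene Ddx21 in 48.3% and Nolc1, the chaperone of snoRNA particles also called Nopp140, in 45.7%.

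The rows of copies of 4 members held counts in proportion to the member. Whether these reads came from the copies or from the member was not tested. The pseudogene copies, taken as processed pseudogenes with at least 95% identity over at least 300 bases, held 53.3% as many counts as Npm1, 34.2% as many as Pes1, 30.5% as many as Wdr12 and 6.88% as many as Nop56. Across cells within a set, the CPM of the copies and of the member had a Spearman rho, adjusted for plate, detected genes and total count, of 0.94 for Npm1 (0.89 to 0.97 over the 6 sets, 232 cells), 0.91 for Pes1, 0.89 for Wdr12 and 0.88 for Nop56, with the same sign in 6 of 6 sets. These points share a library and its depth. For Npm1 the copies stood at 48.0% to 56.4% of the member's mean CPM in every set. With them added, Npm1 is at 1228 in place of 805 CPM and the 34 genes at 0.624% in place of 0.574% of gene counts.

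**Figure D2:**
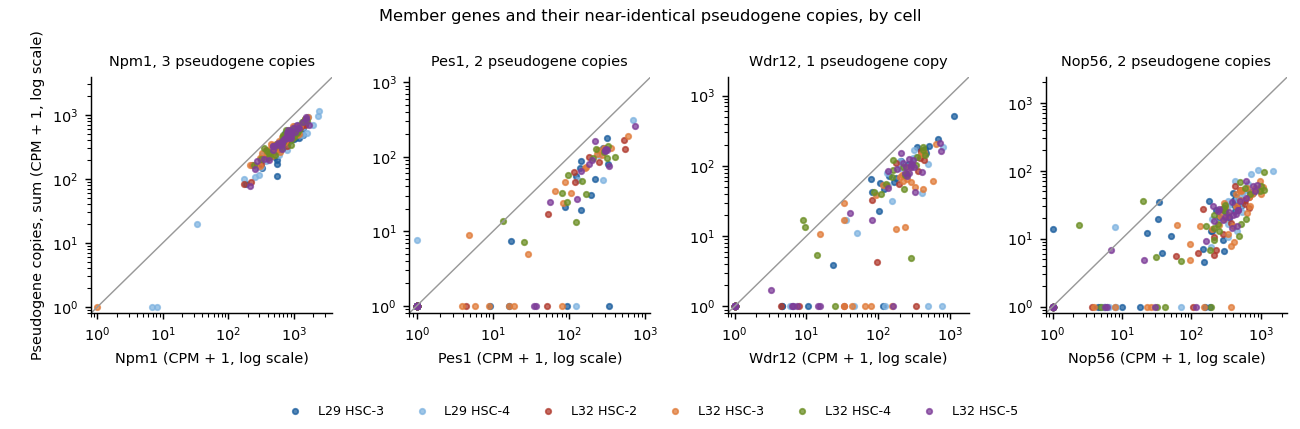
Each point is 1 kept cell, with the CPM of the member gene on the horizontal axis and the summed CPM of its pseudogene copies on the vertical axis, both plus 1 and on log scales; the grey line marks equal values and colours are the 6 sets. Npm1 and its 3 copies lie along a line below equality, with a rho of 0.94, and Pes1, Wdr12 and Nop56 do so with many cells at 0 for the copies.

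Near-empty wells gave a background for these levels. Their summed 616795 gene reads held 4 members at a higher CPM than the 66 kept cells of the same sets, while 21.3% of the genes tested were higher there. These were Nop10 (1715 against 408 CPM), Ncl (1438 against 1089), Nop58 (323 against 252) and Utp20 (82.7 against 9.91). The part of RNA outside the sorted cells in the levels of these 4 genes was not tested.

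Spread between cells was similar to that of other genes. With the squared coefficient of variation within sets compared with its trend on mean level, 19 of 33 members lay above the trend, where 49.0% of the genes tested did. Ncl stood at the 94.7th percentile of genes tested for its level, and its squared coefficient of variation of 0.634 was 2.00 times that of spike-in RNA at the same level. Its highest cell held 4094 CPM against a median of 918. Wdr43, Dkc1 and Nop14 were at the 87.0th, 85.8th and 85.4th percentiles. Fbl, Tcof1 and Npm1 were at the low end, at the 11.4th, 15.7th and 19.7th, and Npm1 was 0.672 times as variable as spike-in RNA.

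RNA content was measured in each cell as gene counts per spike-in count, with a median of 17.2 over kept cells. The share of a gene in the cell's counts was then fitted on RNA content in each set, and the slope is the log2 change in share for each doubling of RNA content. The members' median slope was 0.45, against 0.18 over all genes tested, and the median over sets was above 0 for 29 of 33 members, where 61.8% of the genes tested were. The members' median was 0.28 (0.10 to 0.13 over all genes tested) without L29 HSC-3, L29 HSC-4 or L32 HSC-5 in turn, and 0.29 (0.15) by a Poisson fit. Slopes of single genes varied widely between sets: 4 of 33 members (12.1%) had a positive slope in 6 of 6 sets, where 5.65% of the genes tested did, and no member had a negative one in all sets, where 2.07% of the genes tested did. The 4 were Ncl, Npm1, Nolc1 and Ddx21, all of the general nucleolar group.

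The slopes of Ncl in the 6 sets were 0.82, 1.68, 0.57, 0.19, 0.69 and 0.26, a mean of 0.70 ± 0.54 (SD). Npm1 had 0.28, 0.17, 0.76, 0.12, 0.55 and 0.31, and Nolc1 had 0.76, 0.54, 0.37, 0.50, 0.91 and 2.63. Ddx21 had 0.39, 0.91, 3.21, 0.10, 1.26 and 2.51. Ncl, Npm1 and Ddx21 had their lowest slope in L32 HSC-3, which holds 1 cell with fewer gene reads than spike-in reads, and the same 4 genes were found without that cell. Which members passed did depend on the model: a Poisson fit gave 5 members (Nop56, Wdr43, Nop2, Gnl3 and Npm1), without Ncl, Nolc1 and Ddx21, and a stricter cell filter gave Polr1c, Ncl, Npm1 and Ddx21. Npm1 was the only member positive in every set under each of the 7 settings run on all 6 sets.

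**Figure D3:**
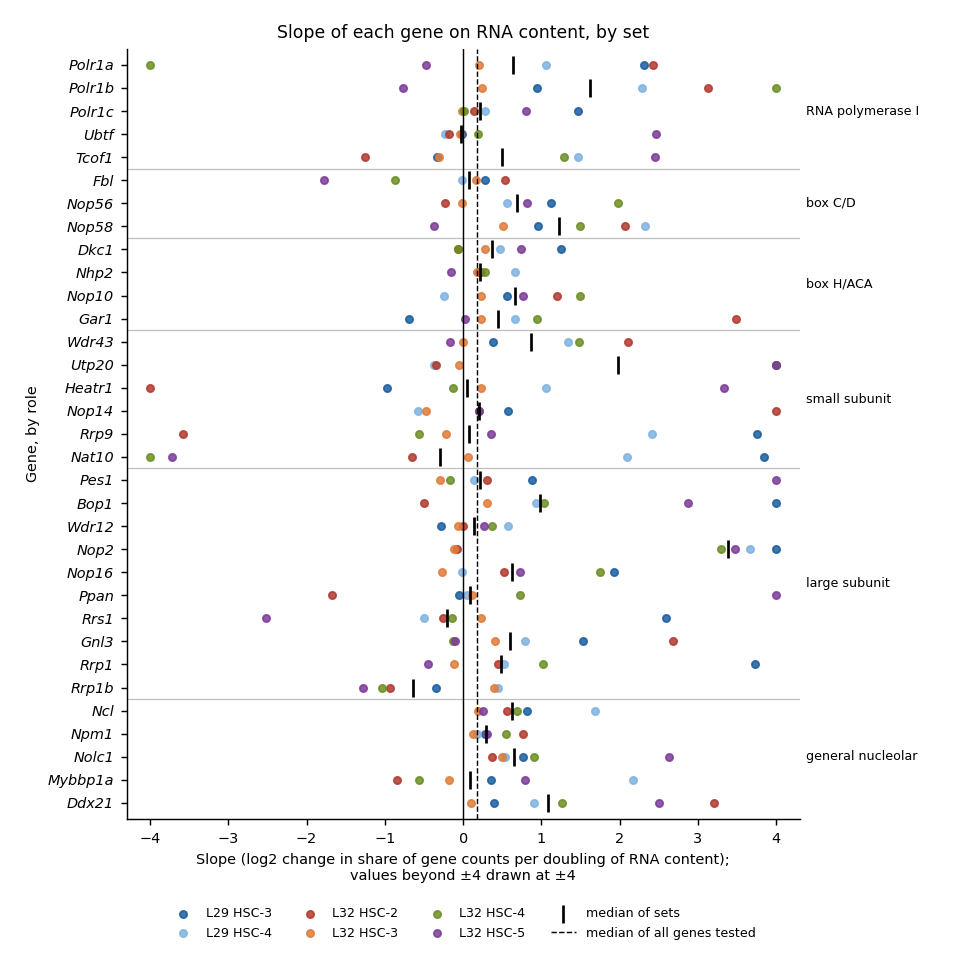
Slope of each of the 33 tested members on RNA content (log2 change in share of gene counts per doubling), with 1 coloured point per set, a black bar at the median of the 6 sets and a dashed line at 0.18, the median of all genes tested; values beyond ±4 are drawn at the edge. Ncl, Npm1, Nolc1 and Ddx21 have all 6 points right of 0, and low-count genes such as Polr1a and Nat10 spread across the whole axis.

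By role, the median slope was 0.49 for the 5 RNA polymerase I genes, 0.69 for the 3 box C/D genes, 0.41 for the 4 box H/ACA genes, 0.14 for the 6 small subunit factors tested, 0.35 for the 10 large subunit factors and 0.63 for the 5 general nucleolar genes. Rrp1b, Nat10, Rrs1 and Ubtf had median slopes below 0 (-0.64, -0.30, -0.20 and -0.03), none with 1 sign in all sets. Of 126 other genes of the pathway, 120 were tested, with a median slope of 0.43. Among them, 10 (8.33%) had a positive slope in every set and 2 a negative one. Over all genes tested, 5.65% were positive and 2.07% negative in every set. By mean slope the first 5 were Taf1c (4.08), Utp14a (2.64), Utp4 (2.32), Pno1 (2.13) and Riok3 (2.09), found in 10.8% to 40.9% of cells. The 2 negative ones were Ttf1 (-0.85), a termination factor of RNA polymerase I, and Nsun5 (-0.85). Nsun5 had no counts in any cell of one of the sets. Its slope there rests on the small count that the fit adds, so that sign carries no information. Its mean Spearman rho with RNA content was 0.027. The 79 ribosomal protein genes, whose products the members' work is joined with, had a median slope of -0.12, with 2 positive and 9 negative in every set. The 6 Mcm2 to Mcm7 helicase genes of DNA replication had a median slope of 1.91, positive in every set for 6 of 6.

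The members' summed CPM and RNA content had a Spearman rho of 0.41 within plates (0.63, 0.49, 0.44, 0.31, 0.35 and 0.13 in the sets, 232 cells). The mean log level of the 33 tested members, the module score, had a rho of 0.61 with RNA content (0.79, 0.79, 0.46, 0.38, 0.50 and 0.49). The same score over all 9689 genes tested had a rho of 0.84, but a mean over more genes holds less counting noise, so the 2 scores cannot be compared with each other. With the number of detected genes and the total count also adjusted for, the values were 0.30 for the members and 0.63 for all genes tested. Gene by gene, the mean rho of a member's log level with RNA content adjusted for plate alone, was above 0 for 33 of 33 members, where 82.8% of the genes tested were, with a median of 0.19 against 0.099. The number of genes detected itself had a rho of 0.60 with the module score, and its part in the relation was not separated further.

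**Figure D4:**
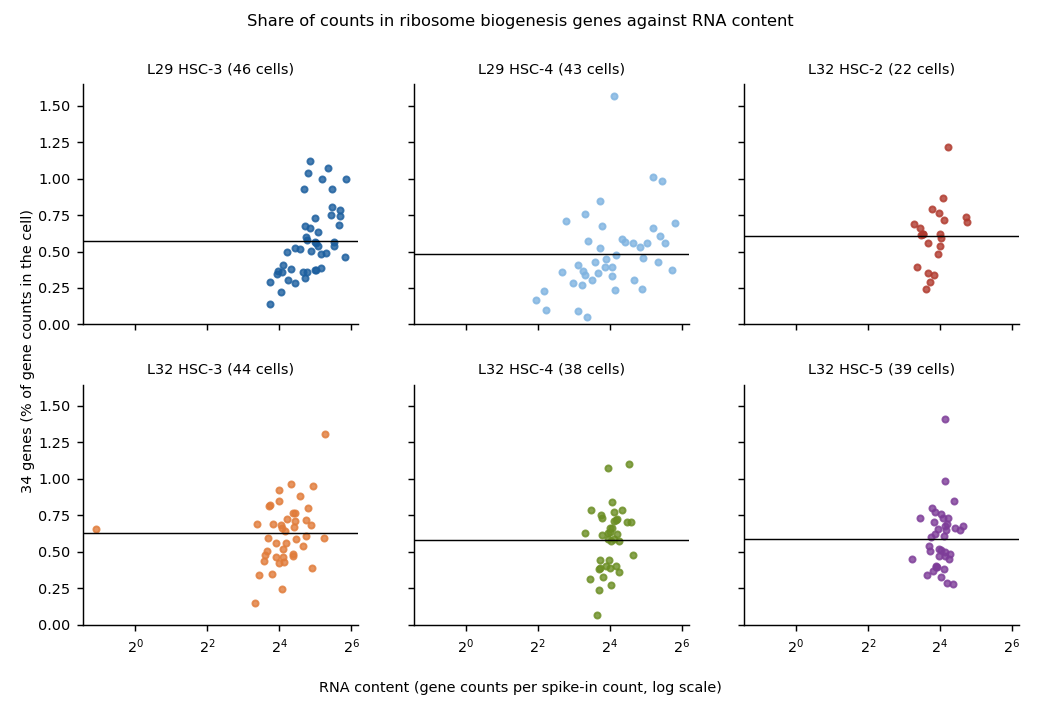
Share of the 34 genes in a cell's gene counts (vertical axis, percent) against RNA content (horizontal axis, log scale), 1 point per kept cell and 1 panel per set, with the set mean as a line. L29 HSC-3 and L29 HSC-4 show rhos of 0.63 and 0.49, 1 cell of L32 HSC-3 lies far left of the others, and L32 HSC-5 spans a narrow range with a rho of 0.13.

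Correlations between pairs of members were near 0. Over the 528 pairs of the 33 tested members, the median Spearman rho, adjusted for plate, detected genes and total count, was 0.038, with 69.3% of pairs above 0, against 0.0021 and 51.1% over all pairs of genes tested. In counts this sparse such values are not read as a finding. Simulated unlinked genes gave a rho of similar size, but they were continuous values with depth added, not sparse counts. That simulation therefore sets no background for these pairs. Among the 12 members in at least 50% of cells the median was 0.10. The highest pair was Dkc1 with Nop10, 2 proteins of the same particle, at 0.31, but positive in 4 of 6 sets only. Nop58 with Ncl was at 0.29 and positive in 6 of 6 sets (0.22, 0.28, 0.58, 0.41, 0.27 and 0.060). In all, 31 of the 528 pairs were positive and 2 negative in every set, the latter Polr1c with Fbl and Ubtf with Nop16. The share over all pairs of genes tested was not counted, so these counts are not read as a finding.

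Each member was also compared with the score of the other members. The rho was above 0 for 31 of 33 members, where 53.1% of tested genes outside the list were above 0, and positive in 6 of 6 sets for 11 of 33, where 4.59% of those genes were. Ncl had the highest rho, 0.40 ± 0.14 (SD over sets), with 0.26, 0.35, 0.65, 0.38, 0.48 and 0.42 in the sets. Dkc1 (0.31), Nop58 (0.29), Nop10 (0.27), Nop56 (0.24), Nhp2 (0.23), Ddx21 (0.23), Gnl3 (0.22), Wdr43 (0.18), Nat10 (0.12) and Nop14 (0.083) were the others positive in every set. Npm1, the most widely detected member, had 0.19 and was at -0.18 in L32 HSC-5. Rrp9 (-0.046) and Rrp1b (-0.017) had rhos below 0.

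**Figure D5:**
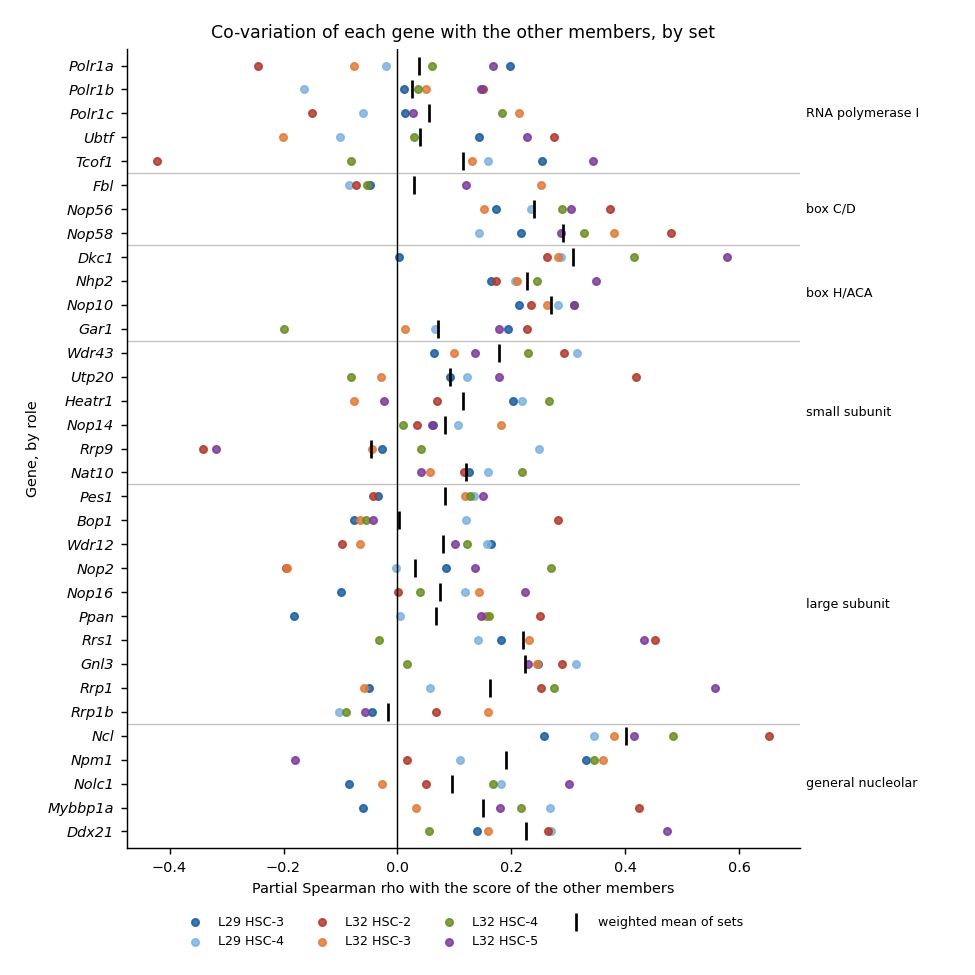
Partial Spearman rho of each tested member with the score of the other members (horizontal axis), with 1 coloured point per set and a black bar at the weighted mean. Ncl lies furthest right at 0.40, the 3 box H/ACA genes Dkc1, Nhp2 and Nop10 and the 2 box C/D genes Nop56 and Nop58 have all points right of 0, and the RNA polymerase I genes scatter around 0.

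Outside the list, the module score had positive rhos with other genes of the pathway and negative ones with long-term HSC genes. The score of the 120 tested other pathway genes had a rho of 0.60 with it (0.49, 0.32, 0.43, 0.70, 0.79 and 0.69). The genes most like it, with 1 sign in 6 of 6 sets, were Mif (0.38), Srm (0.38), Cnbp (0.35), Ran (0.35), Nme1 (0.35), Nutf2 (0.34), Pfn1 (0.34), Eif5a (0.34), Slc25a5 (0.33) and Hspd1 (0.32) in 232 cells. Srm makes spermidine, the polyamine from which eIF5A receives its hypusine, and Ran and Nutf2 act in transport through the nuclear pore. At the other end were Slc34a2 (-0.32), Txnip (-0.31), Syn3 (-0.30), Gabarapl1 (-0.29) and Apoa2 (-0.27). Txnip, an inhibitor of glucose uptake, was negative in each set (-0.28, -0.31, -0.29, -0.28, -0.38 and -0.30).

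The score of 18 long-term HSC genes had a rho of -0.26 with the module score (-0.29, -0.11, -0.35, -0.25, -0.25 and -0.35), and that of the 14 HSC markers, which share genes with that list, -0.15, below 0 in 6 of 6 sets. Some marker lists of other lineages had mean rhos of similar size, -0.17 for myeloid, -0.15 for endothelium and stroma and -0.12 for B cell markers. Others were nearer 0: -0.085 for T and NK cell, -0.050 for mast cell and basophil, -0.011 for megakaryocyte and -0.0055 for erythroid markers. Each of these lists was above 0 in 2 of 6 sets. The 5 multipotent and lymphoid progenitor markers had 0.17, above 0 in 6 of 6 sets, with a summed level of 161 to 462 CPM in the sets. Most of that level was Cd34, at 254 CPM and in 50.4% of cells. Flt3 was at 35.5 CPM and in 11.6% of cells. Cd48 and Dntt were in 2 cells each, and Il7r was below 10 CPM in all cells. Which of the 5 markers carried the rho, and their part in the result, were not tested. Ribosomal protein genes had a rho of -0.051 with the module score, above 0 in 2 of 6 sets. The Mcm2 to Mcm7 score had 0.16, above 0 in 5 of 6, and Myc 0.11, above 0 in 5 of 6, while the score of the Myc family had 0.030 and 3 of its 9 tested genes were above 0.

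The 2 library series are a contrast read from the cell names, in which each set falls wholly on 1 side. The labels do not say what a series stands for. With counts summed per set (2 sets of series 29, 4 of series 32), edgeR's quasi-likelihood test called 0 of 16476 genes and 0 of 34 members at a Benjamini-Hochberg adjusted p of 0.05, while 1433 genes and 5 members were under an unadjusted p of 0.05 (4.50% of genes higher and 4.20% lower in series 32). Those 5 members were Ncl (log2 difference 0.66 ± 0.16 SE, adjusted p = 0.37 by edgeR), Nolc1 (1.16 ± 0.37), Rrp9 (0.87 ± 0.30), Bop1 (1.38 ± 0.45) and Nop10 (-0.44 ± 0.17). For each of the 5, the sets of the series did not overlap in level, which also held for Mybbp1a. Genes picked by a low p tend to separate in this way, and the share over all genes was not counted. The lack of overlap therefore adds no support. DESeq2 called 713 of 17476 genes (2.33% higher, 1.75% lower), and 3 members, Ncl, Rrp9 and Bop1, all higher in series 32 (adjusted p = 0.040, 0.019 and 0.034 by DESeq2). Ncl had 762 and 626 TMM-scaled CPM in the series 29 sets against 1002, 1141, 1352 and 1064 in those of series 32. In simulated counts the edgeR test recovered 15 of 100 genes changed by a log2 difference of 2, and 30 of 99 changed by 3. A count of 0 genes called by edgeR therefore does not show that the series are alike. The series differ in an unknown number of steps and animals, which cannot be told apart.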

How the data were processed

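Polyadenylated RNA of single sorted cells was converted to cDNA with a template-switching protocol, amplified by 22 PCR cycles without molecular identifiers and made into tagmented libraries, per the labels' protocols. Reads were aligned to mm10 with GSNAP and counted with featureCounts (1.6.2), per the submitters' processing notes; no source used here gives the handling of multi-mapping reads or of strand. The deposited values are raw counts per gene, which the authors did not normalize, with 49671 Ensembl gene rows, 92 ERCC spike-in rows (11.7% of all counts) and 1 other row that was left out. No 2 cells had identical values.

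Here, CPM was computed on gene counts, and log levels were log2(CPM/10 + 1). Exact binomial intervals cover counting error only. Slopes came from edgeR (4.0.16) negative binomial fits in each set, with plate as a term and the total count as an offset, and were summarised by the median over sets, a summary chosen after the slopes were seen. Spearman correlations were taken within sets on ranks adjusted for plate, detected genes and total count, and averaged by Fisher z weighted by cells minus 4. Series were compared with edgeR's quasi-likelihood test on set sums (TMM, filterByExpr), with DESeq2 (1.42.0) as an alternative. Other alternatives were cell filters, scaling, covariates, a Poisson fit, near-identical copies and leaving out each set. Each procedure was tested on simulated data. The simulation of correlations was revised once after a first failure, and it used continuous values, not sparse counts. In it, adjustment for ranks of depth left a positive correlation between unlinked genes. This was about as large as the median over pairs of members. Weak correlations are not read as relations. Copies were found with blastn (2.17.0) among GENCODE M21 transcripts. Genes named were all members, the 5 other pathway genes per direction with the largest mean slope and 1 sign in 6 of 6 sets, and the 10 highest and 5 lowest genes by rho with the module score. The members and the gene lists were chosen with earlier results of these data known.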

Additional observations from a re-analysis of the deposited data

Results flagged for a closer look

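For each member, the detected percentage and the mean CPM of the 6 sets were searched for a set far from the other 5, 68 checks in all, of which 6 stood out; chance alone sets apart about 1 in 20. In 5 of them the set was L29 HSC-4, which also had the fewest detected genes and the highest mitochondrial share. There, Tcof1 was detected in 27.9% of cells against 47.4% in the next lowest set, Mybbp1a in 30.2% against 54.3%, Pes1 in 11.6% against 30.4%, Ncl in 74.4% against 89.5%, and Rrp12 in 2.33% against 7.69%. The remaining one was the mean level of Gnl3, at 274 CPM in L29 HSC-3 against 217 CPM in the next highest set.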

How the results depend on the processing

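The detection counts, the number of members above the variance trend and the count of median slopes above 0 stayed within 1.5 times of the reported counts under every alternative run. The module-score relations with RNA content, other pathway genes, long-term HSC genes and Txnip, each with 1 sign in all 6 sets, were not reversed in their mean. Slopes of other pathway genes, rhos of the other single genes named and rhos of the marker lists were not checked in this way. No member slope with 1 sign in all 6 sets was reversed in its median over sets. Other members did change sign. Against 29 reported (61.8% of the genes tested), 24 had a median above 0 without L29 HSC-4 (57.4%) or without L32 HSC-5 (60.3%). By Spearman correlation 33 did, where the share of the genes tested was also higher, at 79.5%. The count of members with a positive slope in every set was the least stable: 13 by Spearman correlation (14.2% of the genes tested), 8 with TMM-scaled totals (9.69%), and 4 to 7 with each set left out, where 5 sets in place of 6 must be positive and 7.51% to 8.69% of the genes tested are; the 7 came without L32 HSC-5. TMM-scaled totals moved the median slope of all genes tested from 0.18 to 0.38 and that of the members from 0.45 to 0.64. The median pair rho of members was 0.085 adjusted for plate alone and 0.10 over members in at least 50% of cells. Adjusted for plate alone, an alternative chosen after seeing the data, the rho of the module score was 0.40 with the Mcm2 to Mcm7 score and -0.16 with long-term HSC genes. Its rho with RNA content was 0.30 with total counts and detected genes also adjusted for. Adding pseudogene copies, also chosen after seeing the data, gave a share of 0.624%. Per kilobase of the longest coding transcript, likewise added later, 4 of the 5 members with the highest levels per length stayed among the first 5. For the library series, DESeq2 called 713 genes and 3 members, edgeR without a filter on low counts 2 genes, and the stricter cell filter 1 gene. The fit with the HSC code as replicate block called 0 genes and 0 members, with 3 members under an unadjusted p of 0.05; sets sharing a code did not deviate together (r = 0.035 for code 3 and 0.0037 for code 4), so the codes were not treated as pairs. At a median of 280096 gene counts, a member under 10 CPM rests on fewer than 3 reads in a typical cell.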

Other observations

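Small nucleolar RNA genes that lie inside members had few counts. Of 21 such genes within 7 members (Dkc1, Gnl3, Ncl, Nop56, Nop58, Ppan and Wdr43), 9 overlap exons of their host on the same strand, and 0 of these 9 had a count, while 10 of the 12 without such overlap did. They held 243 counts in all over 232 cells, while Ncl alone held 75302. Exons of 14 members overlapped exons of another gene; the largest overlap with a single gene was 5.27% of the Nop14 gene model, and Nhp2, with 10592 counts, shares 3.84% of its exonic length with Rmnd5b, which is on the opposite strand and had 5163. The promoter windows of members had a median GC content of 56.7%, against 52.7% over all promoters of the table, and the Kaiso and NRF1 consensus motifs, searched on both strands, occurred in 0 of 28 members and in 0.525% and 1.07% of all genes.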
